A study of Mus musculus with 6 samples.

Results

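Hyaluronan genes in cultured dorsal root ganglion (DRG) neurons were described through 10 genes that make, cross-link, bind and degrade this sugar polymer. The genes were chosen by symbol, with earlier treatment results of these data known, and are 3 synthases, 2 hyaluronidases, Cemip, 2 receptors, the enzyme of heavy chain transfer and pentraxin 3. They do not cover every gene of these classes. Their treatment values are therefore a description, printed without p-values, and their places against the thresholds of the fit support nothing here. All 10 were listed among the 35976 genes of each count table, and 10 of 10 passed the low-count filter, which kept 18277 genes.

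The cultures came from the lumbar DRGs of adult wildtype C57BL/6 mice of both sexes and held the cells left after enzymatic dissociation, plated on poly-d-lysine and laminin in serum-containing medium with added growth factors, GDNF among them. After 24 h, 3 cultures received vehicle and 3 received HC-HA/PTX3 at 15 µg/mL, and RNA was taken 24 h later. HC-HA/PTX3 is a matrix preparation purified from human amniotic membrane, in which heavy chains are bound to hyaluronic acid (hyaluronan) together with pentraxin 3. The comparison asked which transcripts of the cultured cells differed after a long exposure to the complex. Total counts per culture ranged from 37434266 to 54117547, and a level of 1 CPM (the library-scaled count unit of edgeR, with TMM factors) stood for 37.1 to 56.0 counts. Replicate numbers are those of the sample names.

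Hyaluronan is a long unbranched sugar chain of the extracellular matrix, made at the plasma membrane by the synthases Has1, Has2 and Has3 from nucleotide sugars. TSG-6, the product of Tnfaip6, moves heavy chains of the inter-alpha-trypsin inhibitor family onto hyaluronan, and the multimeric protein pentraxin 3, the product of Ptx3, helps to hold such chains together, as in the matrix around the maturing egg cell. Cells bind hyaluronan through receptors such as CD44, and hyaluronidases and CEMIP cut it into fragments. In ganglia and nerves, hyaluronan is part of the matrix around neurons, glia and connective tissue cells.

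The label DRG neuron was checked against marker genes. All 8 neuronal markers were measured, and Tubb3, a neuronal tubulin and their most abundant member, stood at 1296, 1197 and 1156 CPM in vehicle replicates 1, 2 and 3. The neuronal sodium channel gene Scn10a stood at 746, 841 and 859 CPM in the same cultures. Markers of other cells were present as well, so the libraries do not show neurons alone. Fn1 (fibronectin), the most abundant of the fibroblast markers, reached 1025, 1405 and 1235 CPM in vehicle, and Mki67, a gene of dividing cells, 405, 269 and 116 CPM. Ccl21a, a defining marker of lymphatic endothelium, had 0 counts in all 6 cultures. For reads assigned to this gene, counting error alone allows at most 0.0808 CPM in the culture with the highest limit. The other 4 listed markers of that cell type were measured. In bulk RNA of this kind, fewer cells of a type and less RNA per cell cannot be told apart.

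Across the 10 genes, 3 lay past both thresholds used for other genes (adjusted p under 0.05 and a log2 fold change beyond 0.5 in either direction) in edgeR's fit that took the replicate number as a block, and these 3, Has2, Tnfaip6 and Ptx3, were lower after HC-HA/PTX3. Of 10 alternative settings, Has2 lay past both in 8 (not without the block or in DESeq2), Tnfaip6 in 8 (not without the block or without replicate 1) and Ptx3 in 9 (not without the block). The same fit placed 8.70% of the 18277 tested genes past both thresholds, 3.32% higher and 5.38% lower, and 19.2% at an adjusted p under 0.05 at any size. Because the genes were chosen with this contrast known, nothing is read from the count. In 4 of the 10, the CPM values of the groups did not overlap (Has2, Tnfaip6 and Cd44 below vehicle, Cemip above it), against 18.0% of all tested genes. The median log2 fold change of the 10 genes was 0.04, beside -0.01 for all tested genes, with 5 fitted higher and 5 lower. Without the block, edgeR called 0 of 18277 genes (0%), among them none of the 10, although 2089 genes had an unadjusted p under 0.05 and the smallest adjusted p was 0.0581. With the replicate number, edgeR called 1591 genes, DESeq2 1211 and limma-voom 1569, and ComBat-seq followed by limma called 2127. Every call reported here thus depends on comparing same-numbered cultures.

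**Figure D1:**
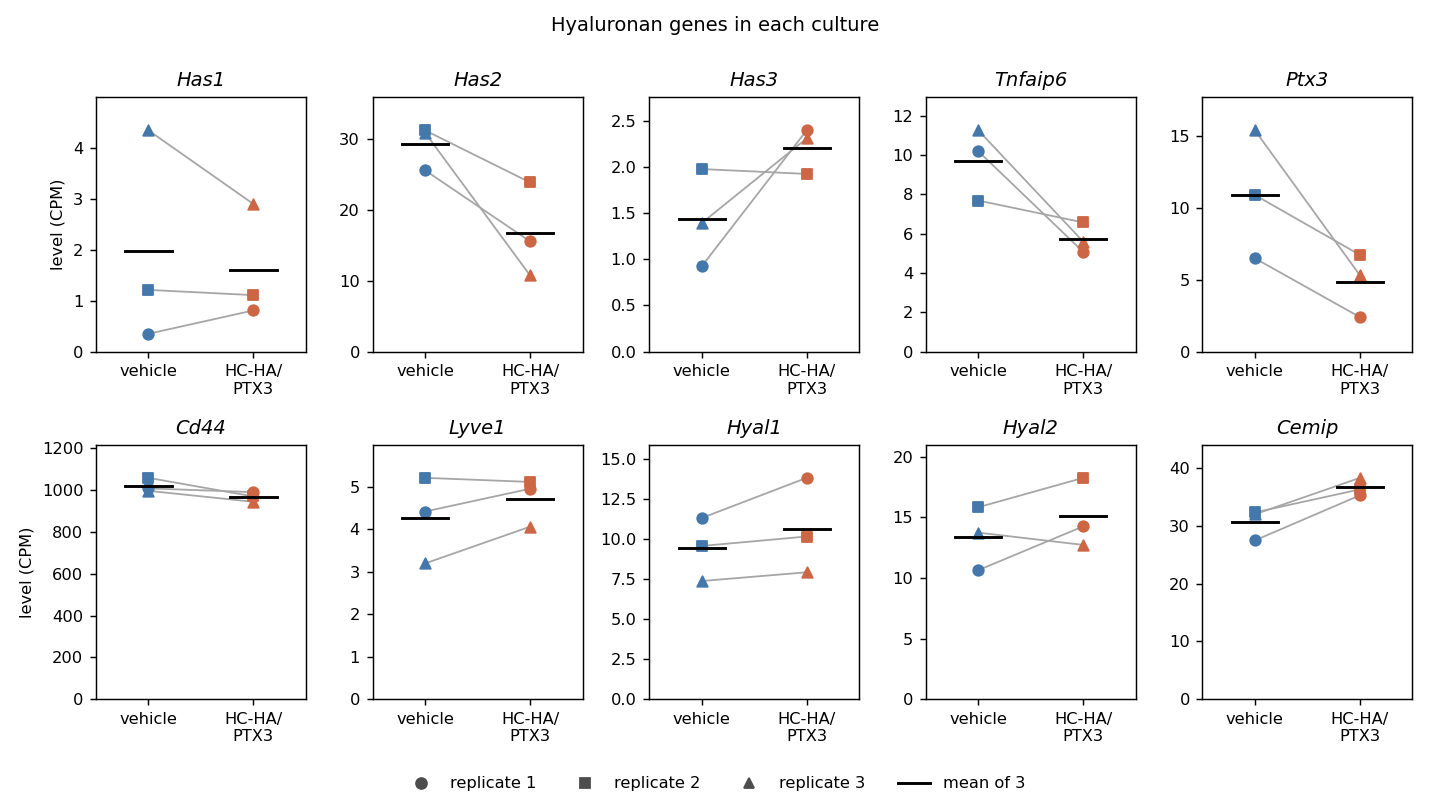
Level of each of the 10 hyaluronan genes in CPM (vertical axes, from 0) in the 3 vehicle and 3 HC-HA/PTX3 cultures. Grey lines join cultures with the same replicate number and black bars are means of 3. Has2, Tnfaip6, Ptx3 and Cd44 were lower in each of the 3 pairs, and Cemip and Hyal1 were higher in each.

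Has2 was the leading synthase of these cultures. The gene lies on the minus strand of chromosome 15 of mm10, from 56665627 to 56694539, and codes for the synthase needed for most hyaluronan of the embryo. It was measured at 25.6, 31.3 and 30.9 CPM in vehicle replicates 1, 2 and 3 and at 15.6, 23.9 and 10.8 CPM in HC-HA/PTX3 replicates 1, 2 and 3. Every treated culture was below every vehicle culture, and the gap was widest in replicate 3. The log2 fold change was -0.87 (SE 0.17), a level 1.82-fold lower, with pair differences of -0.72, -0.39 and -1.52. Leaving out the replicate 3 pair moved the value to -0.53. Has2 shares part of its locus with the antisense transcript Has2os, which had between 6 and 19 counts per culture, against 424 to 1732 counts for Has2.

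Has1 and Has3, the other synthases, were the least abundant of the 10 genes per length of exon. Has1 was measured at 0.350, 1.21 and 4.34 CPM in vehicle and at 0.808, 1.11 and 2.89 CPM after HC-HA/PTX3, and the groups overlapped fully. Replicate 3 was the highest culture of both groups. The fitted log2 fold change of Has1 was -0.09 (SE 0.29), and its sign changed with the setting, from -0.40 without replicate 1 to 0.41 without replicate 3. Has3 stood at 0.924, 1.98 and 1.39 CPM in vehicle and at 2.40, 1.93 and 2.31 CPM after treatment. Treated replicate 2 lay just under its vehicle partner, while the other treated cultures were above all vehicle cultures. The log2 fold change of Has3 was 0.66 (SE 0.26), ranging from 0.35 without replicate 1 to 1.02 without replicate 2.

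Per kilobase of exon, the summed level of the 3 synthase genes was 7.57 ± 1.16 CPM per kb in vehicle and 4.65 ± 1.37 CPM per kb after HC-HA/PTX3 (SD, n = 3 each). Has2 made up 96.5%, 92.7% and 86.1% of this sum in vehicle replicates 1, 2 and 3, and 86.9%, 91.2% and 71.7% in the treated cultures. The Has2 share was thus lower in each treated culture than in its same-numbered partner. The share of Has3 was 2.31%, 3.90% and 2.57% in vehicle and 8.88%, 4.88% and 10.2% after treatment, and that of Has1 was 1.23%, 3.37% and 11.3% in vehicle and 4.23%, 3.96% and 18.1% after treatment. Both shares were higher in 3 of 3 pairs. The shares are parts of the same sum, so a lower Has2 raises the others by construction. The CPM of Has1 itself was higher only in replicate 1, and that of Has3 in replicates 1 and 3.

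Genes of the precursor pathway supply the UDP-sugars that the synthases join. Of the 7 listed (Ugp2, Ugdh, Gfpt1, Gfpt2, Gnpnat1, Pgm3 and Uap1), 7 were tested and 0 were called by edgeR with the block, and 0 had an adjusted p under 0.05 at any size. Their median log2 fold change was -0.17. Ugdh, which makes UDP-glucuronic acid, stood at 55.3, 68.4 and 58.5 CPM in vehicle and at 51.8, 65.0 and 39.8 CPM after HC-HA/PTX3. Each treated culture was below its partner, but the difference of -0.24 (SE 0.10, adjusted p = 0.108) did not pass the test and moved to -0.07 without replicate 3. Ugp2, the enzyme of the preceding step, had non-overlapping groups in the other direction, with 76.1, 77.8 and 69.5 CPM in vehicle and 87.5, 84.4 and 80.6 CPM after treatment, and also missed the threshold (log2 fold change 0.18, SE 0.06, adjusted p = 0.0727).

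Ptx3 and Tnfaip6 were lower in the treated cultures, as Has2 was, and their promoter windows are shown for that reason. RefSeq promoter sequences (GRCm38.p6, from 250 bases before to 50 bases after the annotated start) were matched for 7 of the 10 genes, Cd44, Cemip, Has1, Hyal1, Hyal2, Ptx3 and Tnfaip6. Windows were searched on both strands for TATAAA, for the AP-1 motif TGANTCA, for the CRE motif TGACGTCA and for an NF-kappaB motif. Capitals mark the matches. The Ptx3 window is chr3:66219637-66219936 on the plus strand, and its capitals are overlapping NF-kappaB matches whose first bases lie at -1 and 1 from the start. The Tnfaip6 window is chr2:52037863-52038162 on the plus strand, with an AP-1 match whose first base lies at -142.
Ptx3: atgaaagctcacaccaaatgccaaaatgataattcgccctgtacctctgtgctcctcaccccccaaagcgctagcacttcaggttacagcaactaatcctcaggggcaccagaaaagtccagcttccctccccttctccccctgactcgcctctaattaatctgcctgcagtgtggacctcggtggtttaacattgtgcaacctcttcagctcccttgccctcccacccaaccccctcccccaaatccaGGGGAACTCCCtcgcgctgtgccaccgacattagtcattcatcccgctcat
Tnfaip6: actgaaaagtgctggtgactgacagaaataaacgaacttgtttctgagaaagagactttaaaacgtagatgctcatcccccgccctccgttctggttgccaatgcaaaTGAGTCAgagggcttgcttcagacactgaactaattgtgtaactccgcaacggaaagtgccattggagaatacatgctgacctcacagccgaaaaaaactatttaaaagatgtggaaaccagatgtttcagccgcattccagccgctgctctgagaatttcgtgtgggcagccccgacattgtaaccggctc
An NF-kappaB match was found in 8.46% and an AP-1 match in 7.81% of all 32851 RefSeq promoter windows. Among the other windows, Hyal2 held an NF-kappaB match at -238, Has1 a CRE match at -83 (1.79% of windows) and Cemip a TATAAA at -29 (13.6% of windows). These are matches of letters, and binding was not measured.

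Ptx3 had the largest fitted difference of the 10 genes. It was measured at 6.49, 10.9 and 15.4 CPM in vehicle replicates 1, 2 and 3 and at 2.40, 6.73 and 5.31 CPM after HC-HA/PTX3, from 260, 468 and 862 counts and 89, 255 and 209 counts. The groups overlapped slightly, because vehicle replicate 1 lay below treated replicate 2, yet every treated culture was below its own partner. The log2 fold change was -1.21 (SE 0.17), a level 2.31-fold lower, with pair differences of -1.44, -0.70 and -1.54. Ptx3 lies within Veph1, a gene of the opposite strand that had between 6 and 18 counts per culture. The human pentraxin 3 of the preparation is protein and is not counted by RNA sequencing.

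Tnfaip6 was measured at 10.2, 7.68 and 11.3 CPM in vehicle and at 5.07, 6.57 and 5.59 CPM after treatment. The lowest vehicle culture was above the highest treated culture, both of them replicate 2. Its fitted log2 fold change was -0.75 (SE 0.16), or 1.68-fold lower, and the pair differences were -1.01, -0.23 and -1.01. The gene lies on chromosome 2 from 52038009 to 52056686, and at 1.71 kb of exon it is the shortest of the 10.

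The heavy chains that TSG-6 transfers come from the inter-alpha-trypsin inhibitor genes, with bikunin, encoded by Ambp, as the donor's light chain. Of these 6 listed genes 3 were tested, and 1 was called (33.3%, beside 8.70% of all tested genes), a share of too few genes to read. Itih5 stood at 298, 129.7 and 8.89 CPM in vehicle and at 193, 75.5 and 4.65 CPM after HC-HA/PTX3. The differences between replicate numbers far exceeded those between treatments, and the treated culture was lower in 3 of 3 pairs. The log2 fold change was -0.76 (SE 0.07, edgeR adjusted p = 0.000418), and Itih5 was called in 9 of the 10 alternative settings. Itih2, at 3.65, 4.0 and 0.696 CPM in vehicle and 2.53, 2.90 and 0.330 CPM after treatment, was not called (-0.59, SE 0.20, adjusted p = 0.0590). Itih4 was at or under 0.457 CPM in every culture. Itih1, Itih3 and Ambp had at most 4, 17 and 3 counts in any culture and were not tested.

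**Figure D2:**
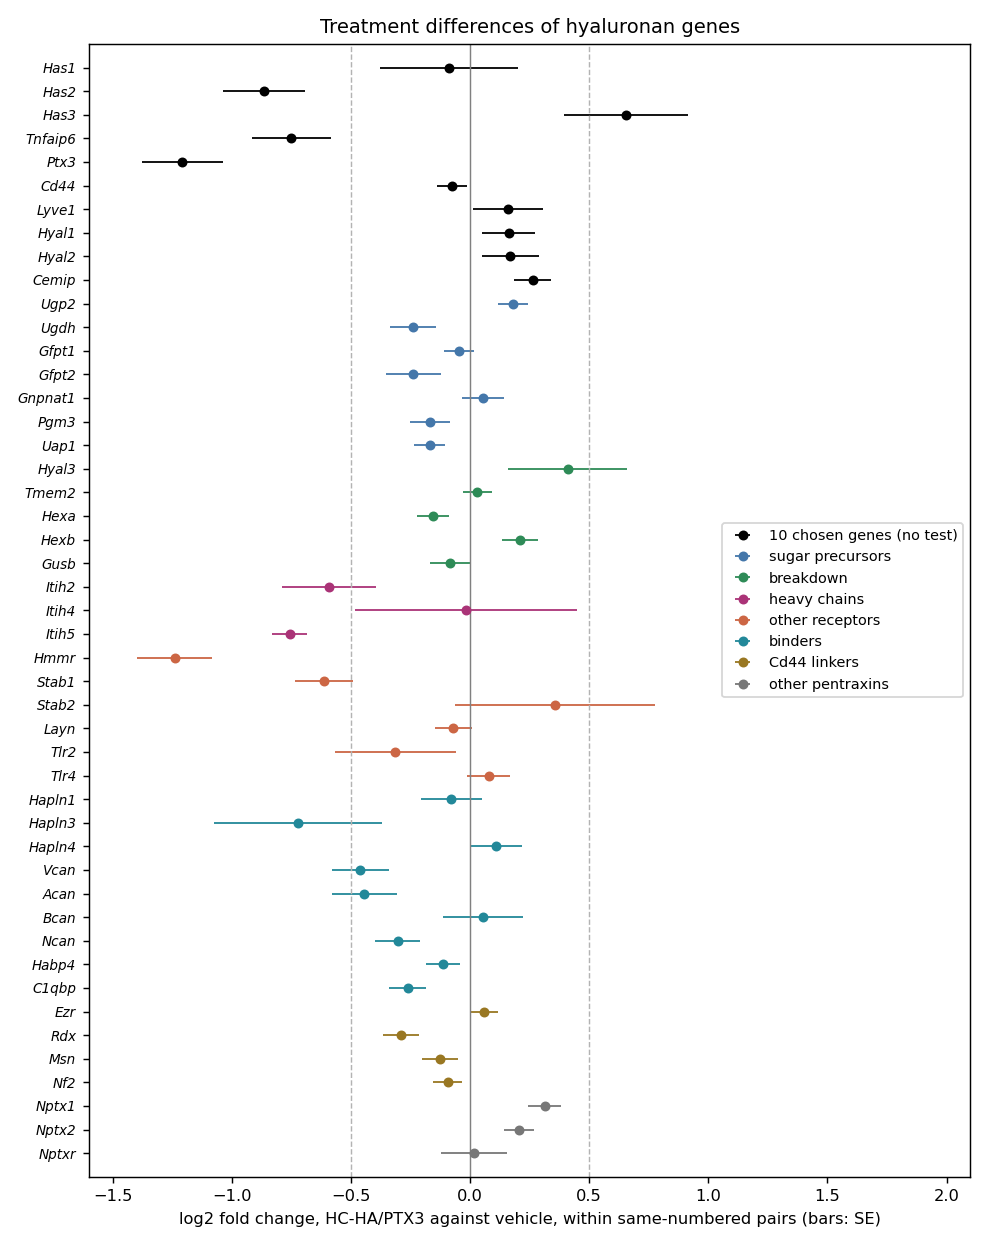
Log2 fold change (horizontal axis, HC-HA/PTX3 against vehicle within same-numbered pairs) with its standard error for the 10 chosen genes in black and for 37 tested other hyaluronan genes coloured by role. Dashed lines mark -0.5 and 0.5. The lowest points are Hmmr at -1.24 and Ptx3 at -1.21.

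CD44 is the main cell-surface receptor for hyaluronan. Cd44 was measured at 1008, 1059 and 997 CPM in vehicle and at 990.5, 970.0 and 944 CPM after HC-HA/PTX3. The groups were adjacent without overlapping, and the spread within each was a few percent of the level. The fitted difference on the log2 scale was -0.08 (SE 0.06), with pair differences of -0.03, -0.13 and -0.08. Its exons sum to 6.78 kb on the minus strand of chromosome 2, from 102811141 to 102901665.

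Lyve1, a receptor of lymphatic endothelium and of some macrophages, was measured at 4.42, 5.21 and 3.20 CPM in vehicle and at 4.96, 5.12 and 4.06 CPM after treatment. The groups overlapped, and the log2 fold change was 0.16 (SE 0.15), ranging from 0.08 without replicate 3 to 0.25 without replicate 2. Beside it, the 4 tested genes of the lymphatic endothelium list (Prox1, Pdpn, Flt4 and Reln, with Reln the highest in replicates 1 and 2 and Pdpn in replicate 3) included 0 called genes, and the list summed to 191, 164 and 88.6 CPM in vehicle and to 207, 166 and 105 CPM after treatment.

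Of 6 other listed hyaluronan receptors, 6 were tested and 2 were called, both lower (33.3%, beside 8.70% of all tested genes). Nothing is read from a share of so few genes. Hmmr encodes a hyaluronan-binding protein that also sits on the mitotic spindle. Its levels were 45.8, 29.7 and 14.4 CPM in vehicle and 19.9, 17.1 and 4.01 CPM after HC-HA/PTX3, lower in 3 of 3 pairs (log2 fold change -1.24, SE 0.16, edgeR adjusted p = 0.00107). The 11 listed markers of cycling cells were lower in the same cultures, as given with the marker lists. Stab1, a scavenger receptor of macrophages and sinusoidal endothelium, was at 18.9, 28.2 and 18.6 CPM in vehicle and at 13.8, 21.1 and 9.32 CPM after treatment (-0.61, SE 0.12, edgeR adjusted p = 0.00742), also lower in 3 of 3 pairs. Without replicate 3 the value for Stab1 was -0.42 and it was no longer called. Layn, with 49.5, 45.5 and 24.3 CPM in vehicle and 43.7, 46.6 and 23.2 CPM after treatment, was the most abundant of the 6 and did not pass the test (-0.07, SE 0.08, adjusted p = 0.569). Tlr4 (0.08, SE 0.09) and Tlr2 (-0.31, SE 0.25), receptors reported to sense hyaluronan fragments, were not called either.

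These 3 calls were lost when the block was removed. The log2 fold changes stayed close, at -0.68 for Itih5, -1.13 for Hmmr and -0.57 for Stab1, but with edgeR's adjusted p at 0.907, 0.549 and 0.551. Over all alternatives the adjusted p ran from 9.89e-20 to 0.907 for Itih5, from 1.06e-25 to 0.549 for Hmmr and from 1.65e-06 to 0.551 for Stab1.

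The intracellular partners that link CD44 to the actin cytoskeleton, ezrin, radixin and moesin, and their relative merlin (Nf2) held 0 called genes of 4 tested. Msn (moesin) was the most abundant, at 1446, 1312 and 1111 CPM in vehicle and 1178, 1314 and 1048 CPM after treatment. Rdx (radixin) had non-overlapping groups, with 209.8, 193 and 195 CPM in vehicle and 155, 181 and 154 CPM after treatment. Its difference passed the p threshold at a size under 0.5 (-0.29, SE 0.07, edgeR adjusted p = 0.0233). Ezr, which encodes ezrin, was not called (0.06, SE 0.06).

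Hyaluronidases cut the chain, HYAL2 at the cell surface and HYAL1 in lysosomes. Hyal1 was measured at 11.3, 9.57 and 7.38 CPM in vehicle and at 13.8, 10.2 and 7.92 CPM after HC-HA/PTX3, and Hyal2 at 10.6, 15.8 and 13.7 CPM and at 14.3, 18.3 and 12.7 CPM. For both genes the groups overlapped broadly. The log2 fold changes were 0.16 (SE 0.11) for Hyal1 and 0.17 (SE 0.12) for Hyal2, and ranged from 0.10 without replicate 1 to 0.21 without replicate 3 for Hyal1 and, for Hyal2, from 0.05 without replicate 1 to 0.33 without replicate 3. Hyal1 was higher in 3 of 3 treated cultures than in their partners, by 0.29, 0.09 and 0.10. The counts of Hyal1 and Hyal3 are uncertain, since on chromosome 9 their exons and those of Nat6 overlap on the same strand, and Nat6 was counted at 31.1, 27.5 and 28.2 CPM in vehicle and at 40.8, 36.4 and 38.7 CPM after treatment. Nat6 was thus higher in 3 of 3 pairs, with non-overlapping groups (0.42, SE 0.07, edgeR adjusted p = 0.00460), and its part in the values of Hyal1 and Hyal3 was not tested.

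Cemip, which encodes a hyaluronan-degrading protein unrelated to the hyaluronidases, was measured at 27.5, 32.3 and 32.0 CPM in vehicle and at 35.3, 36.3 and 38.3 CPM after treatment. Every treated culture was above every vehicle culture. The log2 fold change was 0.26 (SE 0.08), or 1.20-fold higher, with pair differences of 0.36, 0.17 and 0.26 and a range of 0.22 to 0.31 over 10 alternatives.

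Among 9 other listed genes of breakdown, 5 were tested and 0 were called. Cemip2, listed as Tmem2 in the tables, had the highest CPM of them at 126, 126 and 101 CPM in vehicle and 126, 128 and 106 CPM after treatment (log2 fold change 0.03, SE 0.06). Of the lysosomal enzymes that trim the released sugars, Hexa and Gusb had log2 fold changes of -0.16 and -0.08. Hyal3, at 2.27, 2.07 and 2.14 CPM in vehicle and 3.93, 1.45 and 3.68 CPM after treatment, was not called (0.41, SE 0.25, adjusted p = 0.281) and passed both thresholds in 1 of 10 alternatives, without replicate 2. The sperm hyaluronidase gene Spam1 and the related Hyal4 and Hyal6 had at most 2 counts in any culture, and Hyal5 had 0 in all 6.

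Proteins of the matrix that bind hyaluronan include the lecticans, versican, aggrecan, brevican and neurocan, and the link proteins that hold them to the chain. Of 11 listed binders 9 were tested and 0 were called. An adjusted p under 0.05 at a size under 0.5 was reached by 4, all lower, beside 19.2% of all tested genes at any size. Vcan (versican) stood at 57.7, 89.2 and 61.3 CPM in vehicle and at 51.5, 71.4 and 32.7 CPM after HC-HA/PTX3 (-0.46, SE 0.12, edgeR adjusted p = 0.0233), lower in 3 of 3 pairs. Its difference was larger without replicate 1 (-0.61) and smaller without replicate 3 (-0.23). Acan (aggrecan) was at 1.37, 5.19 and 15.9 CPM in vehicle and at 0.889, 3.83 and 12.3 CPM after treatment, so that it differed more between replicate numbers than between groups. The others were Ncan (-0.30, SE 0.09) and C1qbp (-0.26, SE 0.08, but -0.15 without replicate 3). Ncan and Acan missed the p threshold in DESeq2 (DESeq2 adjusted p = 0.0570 and 0.0868). With upper-quartile scaling, only Vcan of the 4 passed it (edgeR adjusted p = 0.0326). The link protein genes Hapln1 and Hapln4 had log2 fold changes of -0.08 and 0.11 and did not pass the test. Hapln3, under 1.2 CPM in every culture, had the largest fitted difference of the list and was not called either (-0.72, SE 0.35, adjusted p = 0.182), with values from -0.31 without replicate 1 to -1.14 without replicate 2.

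Of the other pentraxin genes, Nptx1 and Nptx2 differed in the opposite direction to Ptx3, at sizes that were not called. Nptx1 (neuronal pentraxin 1), a secreted protein of synapses, stood at 283, 448 and 299 CPM in vehicle and at 359, 505 and 400.4 CPM after treatment, higher in 3 of 3 pairs (0.31, SE 0.07, edgeR adjusted p = 0.0110). Nptx2 was higher in 3 of 3 pairs as well (0.21, SE 0.06, adjusted p = 0.0463). Per kilobase of exon, the level of Ptx3 was 4.46%, 4.73% and 10.0% of that of Nptx1 in vehicle replicates 1, 2 and 3 and 1.30%, 2.59% and 2.58% after treatment. The liver pentraxin genes Crp and Apcs had at most 2 counts in any culture.

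Over all 48 other hyaluronan genes, 37 were tested and 3 were called, all lower, a share of 8.11% beside 8.70% of all tested genes. That share is near the background and is not a result about the list. The median log2 fold change of the 37 was -0.09, with 13 fitted higher and 24 lower, and 10 had an adjusted p under 0.05 at any size. Without the block, 0 of the 37 were called by edgeR, and 1, Rdx, had an unadjusted p under 0.05.

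Levels per kilobase of exon differed widely between the genes, with Cd44 far above the rest at 151 ± 4.87 CPM per kb in vehicle (SD, n = 3). Has2 (6.91 ± 0.747), Tnfaip6 (5.68 ± 1.07), Ptx3 (4.07 ± 1.66) and Hyal2 (4.07 ± 0.793) followed, and neighbours in this order lay within their spread. Cemip (2.50 ± 0.221), Hyal1 (2.49 ± 0.522) and Lyve1 (1.47 ± 0.348) came next, the first 2 of them within their spread of each other. Has1 (0.435 ± 0.465) and Has3 (0.224 ± 0.0828) were lowest and also lay within their spread of each other. After HC-HA/PTX3 the leading genes were Cd44 at 143 ± 3.42, Hyal2 at 4.58 ± 0.868, Has2 at 3.95 ± 1.57 and Tnfaip6 at 3.36 ± 0.446 CPM per kb, and Ptx3 stood at 1.79 ± 0.823. Has2 and Hyal2 lay within their spread of each other in the treated cultures.

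**Figure D3:**
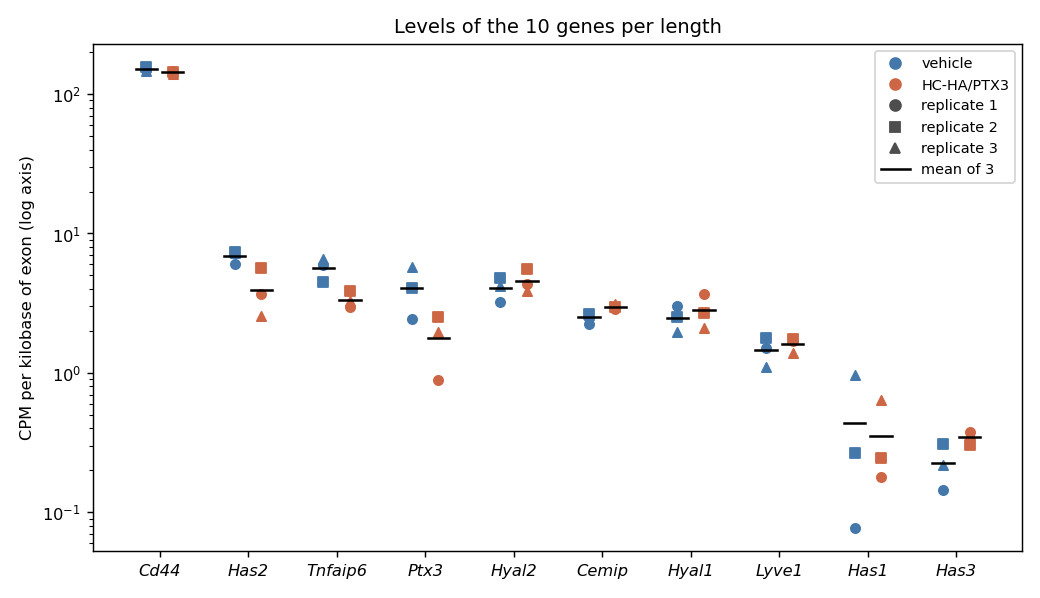
Level of the 10 genes in CPM per kilobase of exon (vertical log axis), ordered by their vehicle mean, with 1 point per culture and black bars for means of 3. Cd44 stands at 151 in vehicle and every other gene is under 10.

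The replicate number, a contrast that played no part in the choice of the genes, was tested in the same fit. It was called for 33.8% of the 18277 tested genes at an adjusted p under 0.05, and for 3 of the 10, a share near that background. Has1 was higher in replicates 2 and 3 than in replicate 1, by 1.01 and 2.65 on the log2 scale (edgeR adjusted p = 0.000648). Ptx3 was likewise higher by 1.09 and 1.20 (edgeR adjusted p = 0.00301), and Hyal1 was lower by -0.34 and -0.71 (edgeR adjusted p = 0.00745). The order of the 3 numbers for Has1 and Hyal1 was the same in both groups. Has2 (adjusted p = 0.112), Tnfaip6 (0.740) and Cd44 (0.784) did not pass this test.

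Of the 37 other hyaluronan genes, 25 (67.6%) differed between replicate numbers. The largest difference was that of Itih5, which was lower in replicate 3 than in replicate 1 by -5.20 on the log2 scale (edgeR adjusted p = 4.20e-09). Acan differed by 3.64 in the opposite direction (adjusted p = 9.43e-07), Ezr by -1.31 (1.60e-06) and Layn by -0.97 (5.47e-05). Hapln1 was lowest in replicate 2, at 3.54 CPM in vehicle and 3.03 CPM after treatment, against 7.36 CPM or more in the other cultures. Markers of several cell types differed between replicate numbers as well, among them 11 of 11 for cycling cells, 9 of 9 for satellite glia, 8 of 9 for fibroblasts, 4 of 8 for neurons and 3 of 10 for macrophages, beside 33.8% of all tested genes. The summed level of the satellite glia markers was 2661, 1531 and 788 CPM in vehicle and 2434, 1609 and 873 CPM in the treated cultures. Apoe was the most abundant of them in replicate 1 of both groups and Cadm1 in the others. Their part in the differences between replicate numbers was not tested.

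**Figure D4:**
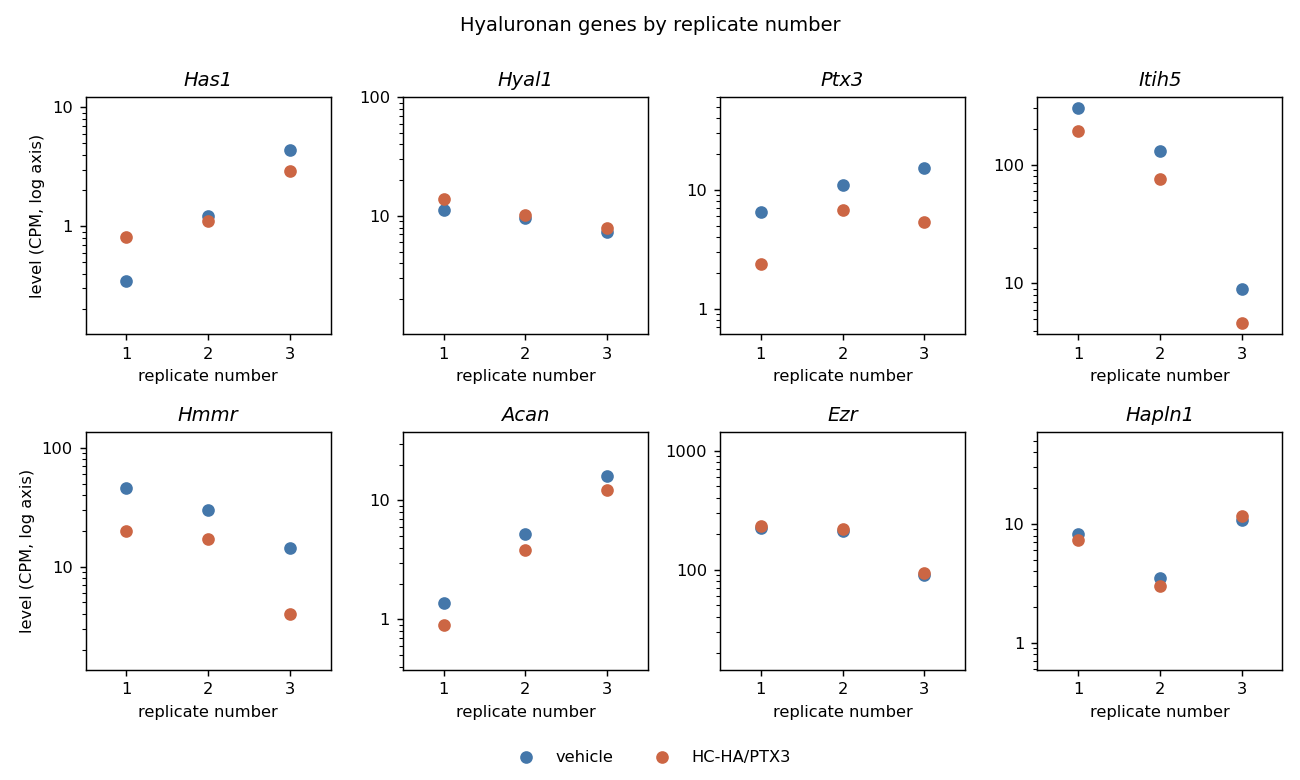
Level in CPM (vertical log axes, each spanning 2 orders of magnitude) of 8 hyaluronan genes against the replicate number of the culture, for vehicle and HC-HA/PTX3. Itih5, Hmmr and Ezr are lowest and Acan is highest in replicate 3 of both groups.

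Markers of other cell types were in part lower in the same treated cultures as Has2, Tnfaip6, Ptx3, Hmmr and Stab1. The called share was 55.6% for fibroblasts, 100% for cycling cells, 30% for macrophages and 28.6% for mural cells. Over all tested genes it was 8.70%, with 3.32% higher and 5.38% lower. The marker lists were also chosen with earlier results of these data known, so these shares are a description. Of 9 fibroblast markers, 5 were called and all 5 were lower (Col1a1, Col1a2, Col3a1, Fn1 and Fbln1). The others were fitted lower without a call, Mfap5 (-0.41, SE 0.18), Lum (-0.31, SE 0.15), Pdgfra (-0.25, SE 0.09) and Dcn (-0.09, SE 0.06). The list summed to 3172, 3565 and 2132 CPM in vehicle and to 2003, 2384 and 1040 CPM after treatment, with Fn1 the most abundant. All 11 markers of cycling cells were called lower, with sums of 907, 609 and 276 CPM in vehicle and 314, 311 and 53.9 CPM after treatment, and Mki67 as the most abundant. Each treated sum was below that of its same-numbered vehicle culture. Of 10 macrophage markers, C1qa, C1qb and Cd163 were called lower, and the sums were 55.3, 70.7 and 57.5 CPM and 47.3, 66.0 and 40.1 CPM. In this list 9 of 10 were fitted lower, with a median log2 fold change of -0.51. Cd68, the leading marker, was level (-0.01, SE 0.10), and Mrc1 was fitted higher without a call (0.34, SE 0.13, higher in 3 of 3 pairs). Of 7 mural cell markers, Acta2 and Tagln were called lower, and the sums were 562, 665 and 535 CPM and 512, 623 and 316 CPM. Rgs5, the highest on average over the 6 cultures but below Pdgfrb in vehicle replicates 2 and 3, was fitted higher without a call (0.15, SE 0.06, higher in 3 of 3 pairs), and Pdgfrb was fitted lower (-0.22, SE 0.10). No marker of these lists was at 0. None of the marker genes was called without the block, and the part of these cells in the hyaluronan results was not tested.

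The remaining lists held fewer calls. The neuronal list had 0 called of 8 and summed to 6311, 5149 and 5666 CPM in vehicle and 6728, 5662 and 6591 CPM after treatment. Satellite glia had 0 called of 9, endothelium 0 of 7 and neutrophils 0 of 5. Endothelial markers, led by Cdh5, summed to 258, 283 and 313 CPM in vehicle and to 269, 319 and 297 CPM after treatment, and the neutrophil markers, led by S100a9 or S100a8, to less than 10 CPM in every culture.

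**Figure D5:**
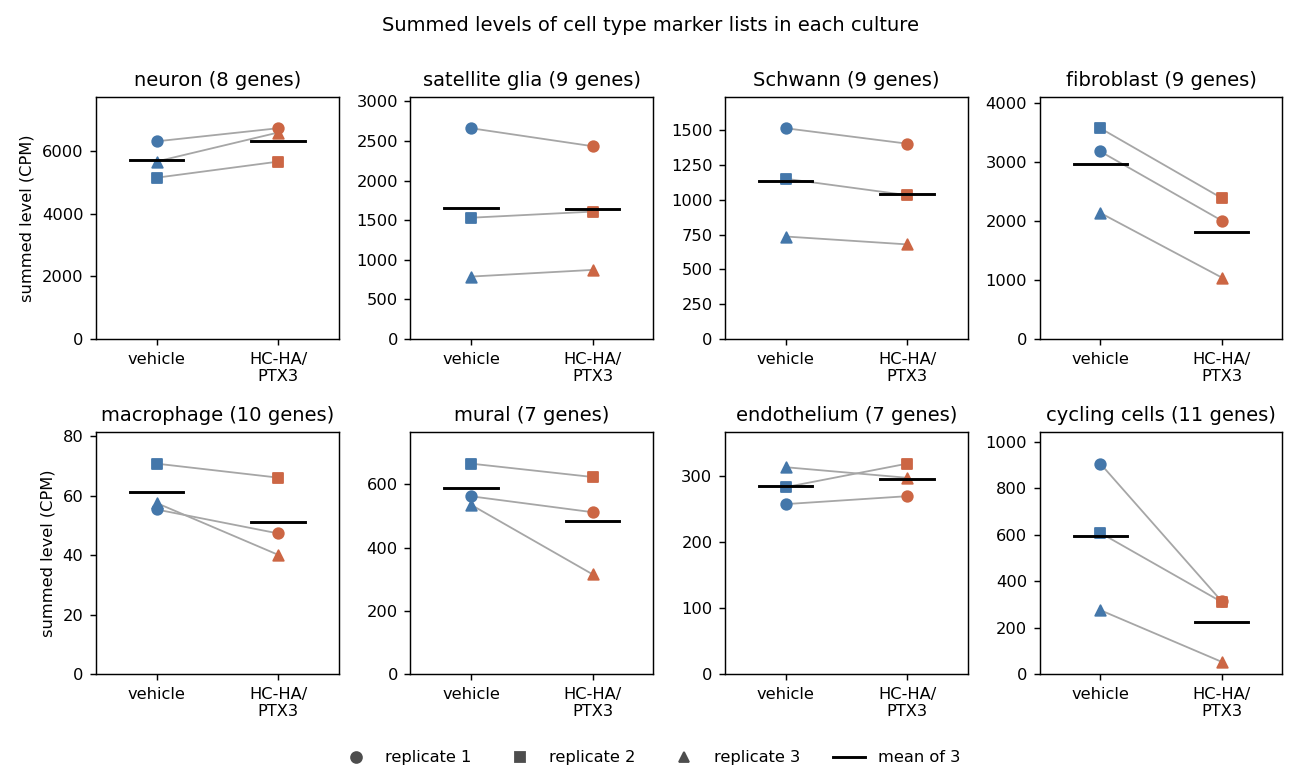
Summed level in CPM (vertical axes, from 0) of 8 marker lists in each culture, with grey lines joining same-numbered cultures and black bars for means of 3. The fibroblast and cycling cell sums were lower in each treated culture than in its partner, and the neuronal sums were higher.

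Tnfaip6, Ptx3 and Has2 are known as genes induced by inflammatory cytokines and by the ovulatory signal in cumulus cells, and genes of these settings were listed for comparison. Of 17 listed cytokine response genes 15 were tested, and 3 (20.0%, beside 8.70% of all tested genes) were called, Vcam1, Ptgs2 and Ccl2, each lower. The median log2 fold change of the 15 was -0.31, against -0.01 for all tested genes, with 12 fitted lower and 3 higher. Ptgs2, the inducible cyclooxygenase, stood at 26.4, 37.5 and 57.6 CPM in vehicle and at 16.0, 32.2 and 30.3 CPM after treatment (-0.62, SE 0.12, edgeR adjusted p = 0.00665), lower in 3 of 3 pairs. Genes not called ran from Cxcl5 (-0.65, SE 0.24) and C3 (-0.53, SE 0.25) through Il6 (-0.14, SE 0.15) and Nfkbia (-0.03, SE 0.10) to Cxcl2 (0.77, SE 0.46), while Il1b was too low to test. Of 9 listed genes of the cumulus matrix programme 7 were tested and 2 (28.6%, beside 8.70% of all tested genes) were called, 1 higher and 1 lower. The median log2 fold change of the 7 was -0.46, against -0.01 for all tested genes, with 5 fitted lower and 2 higher. Areg, an EGF receptor ligand, was higher at 16.9, 13.8 and 8.23 CPM in vehicle and 18.8, 18.4 and 16.5 CPM after treatment (0.52, SE 0.15, edgeR adjusted p = 0.0326), and Ptgs2, which is on both lists, was lower. Ereg, another ligand of that receptor, was fitted lower in 3 of 3 pairs without a call (-0.52, SE 0.18, adjusted p = 0.0661). Without the block, 0 genes of both lists were called. Both lists were chosen with earlier results of these data known, so their shares and medians are a description.

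By correlation of log2 CPM over the 6 cultures, among 13575 tested genes with a mean log2 CPM of at least 1, the patterns most like Has2 were those of Acta2 (r = 0.993), Obfc1 (r = 0.993) and 2510039O18Rik (r = 0.993). For Tnfaip6 they were Cul1 (r = 0.997), Setd1b (r = 0.991) and Tiam1 (r = 0.989), and for Ptx3 Zfp280b (r = 0.997), Zbtb17 (r = 0.995) and Csrp2bp (r = 0.994). Cd44 was most like Pgap2 (r = 0.990), Prkra (r = 0.984) and Crtac1 (r = 0.983). With 6 cultures and this many genes, values of this size describe the same libraries and say nothing of shared function. The fitted log2 fold changes of these 12 genes ran from -1.03 for Acta2 to -0.08 for Obfc1.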

How the data were processed

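RNA was measured in 3 vehicle and 3 HC-HA/PTX3 cultures. The values deposited by the authors are raw read counts, whole numbers that were neither normalized nor pooled. Reads from ribosomal RNA-depleted libraries were aligned to mm10 and counted per gene with featureCounts. The submitters' processing notes name HISAT2, whereas the table headers name STAR, and no strand setting is given in the sources used here. Reads of overlapping and antisense genes could therefore have been assigned to either gene.

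Counts were analysed in R 4.3.3 with edgeR 4.0.16 (filterByExpr, TMM, quasi-likelihood F test), with Benjamini-Hochberg adjustment over 18277 genes. The call thresholds were 0.05 for the adjusted p and 0.5 for the size of the log2 fold change. The replicate number entered as a block, in place of the batch term of the study's methods, which do not list the batches. As a check of the pairing, the deviation of each gene from its group mean was correlated between a vehicle and a treated culture, with r of 0.631, 0.536 and 0.774 for equal numbers and of -0.613 to 0.148 for unequal numbers, so the numbers were treated as pairs (limit 0.1). Alternatives used limma 3.58.1, DESeq2 1.42.0 and sva 3.50.0 (ComBat-seq), other filters and scaling, no block, and each pair left out. Tests were checked on simulated counts.

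The 10 genes and all lists were chosen with earlier results of these data known. Named genes are the 10, called genes and level examples of the hyaluronan lists, leading, called or absent markers, examples fitted in the other direction, and the 3 genes most like Has2, Tnfaip6, Ptx3 and Cd44. Cemip2 was read as Tmem2. Exon lengths and positions are from GENCODE M21, promoters from RefSeq. No library was a duplicate of another in its group, with chi-square values of 31.4 to 108 per degree of freedom. Floors of 3 counts cover counting error only. With the block, p-values for treatment are set against the spread of the treatment difference over the same-numbered pairs. Differences between replicate numbers are taken out of that spread. Without the block, p-values are set against the spread between cultures of a group. The sources used here do not say which mice gave which culture, so either spread may be partly technical.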

Additional observations from a re-analysis of the deposited data

How the results depend on the processing

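With no replicate block, 0 genes were called among all tested genes and 0 among the other hyaluronan genes, against 1591 and 3 with the pairing. The cause was not tested. With no fold threshold the counts were 3505 and 10, by construction of that setting. Leaving out a same-numbered pair gave 878 (without replicate 1) to 1571 calls among all tested genes, from fewer cultures, and 2 to 4 among the other hyaluronan genes. Other filters, upper-quartile scaling, DESeq2, limma-voom and ComBat-seq gave 1211 to 2127 and 3 to 4. Upper-quartile scaling moved the median log2 fold change of all genes from -0.01 to 0.03.

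For the 10 genes, Has1 changed sign and the other 9 kept theirs in 10 of 10 alternatives. Has2 lay past both thresholds in 8 (not without the block or in DESeq2), Tnfaip6 in 8 (not without the block or without replicate 1), Ptx3 in 9 and Has3 in 2. Itih2, Vcan and Hyal3, not called here, were called in 2, 1 and 1 alternatives. Of the log2 fold changes of other hyaluronan genes, 358 stayed on the same side of the thresholds, 4 passed them newly and 4 no longer passed. Depth limits Has1, Has3 and genes under about 1 CPM, where counting error adds to the spread between cultures.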
